A study of Mus musculus with 12 samples.

Results

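Igfbp4, Rflnb and Niban1 are 3 genes whose transcripts were higher in the most mature CD4 SP (CD4 single positive) thymocytes than in the least mature ones, and they reached that level at different stages. The genes were chosen by this rise itself, measured on the same arrays, so their levels and differences are given here as a description and without p-values. Every probe set that the annotation of the array assigns to 1 of these symbols alone was taken. This gave 11 of the 45037 probe sets on the array, with 6 for Igfbp4, 3 for Rflnb and 2 for Niban1, and 3 of the 18193 genes that could be named.

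The mRNA came from CD4+CD8-CD25-NK1.1- thymocytes of untreated C57BL/6 mice aged 6 to 8 weeks, with no allele or agent that differed between groups, sorted without culture from pooled thymi. By the methods, CD8+ cells were first killed with anti-CD8 antibody and complement and the dead cells spun out. Surface Qa-2, 6C10 and CD69 divided these cells into 4 subsets, which the study orders from least to most mature. SP1 cells carried 6C10 and CD69 but no Qa-2. In SP2 6C10 was gone and CD69 remained, in SP3 all 3 markers were absent, and SP4 cells carried Qa-2 but neither 6C10 nor CD69. Each subset was measured on 3 Affymetrix whole-genome mouse arrays, labelled as biological replicates. The sort did not remove CD44hi mature T cells that may have returned to the thymus, and each sample is a mixture of cells, so fewer cells of a type and less RNA per cell cannot be told apart.

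After positive selection, CD4 SP thymocytes spend several days in the medulla, where they lose CD69, gain Qa-2 and acquire the machinery to leave for the blood. Igfbp4 encodes a secreted protein that binds insulin-like growth factors (IGFs) and keeps them from their receptor, and that can also bind Wnt co-receptors. Rflnb encodes refilin B, a partner of filamin A that helps to bundle actin, and Niban1 encodes a cytoplasmic protein that is induced by endoplasmic reticulum stress and bears on translation and survival.

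The promoters are shown because the 3 genes rose at different stages, and the windows let their sequence makeup be set beside that timing. Each covers 250 bases before and 50 bases after the annotated start, from RefSeq on GRCm38.p6, and all 3 genes matched by symbol. Capitals mark a TATA box (TATAAA) or a GC box (GGGCGG), searched on both strands. The Igfbp4 window is chr11:99040994-99041293 on the plus strand, the Rflnb window chr11:76027733-76028032 on the minus strand and the Niban1 window chr1:151571123-151571422 on the plus strand.
Igfbp4: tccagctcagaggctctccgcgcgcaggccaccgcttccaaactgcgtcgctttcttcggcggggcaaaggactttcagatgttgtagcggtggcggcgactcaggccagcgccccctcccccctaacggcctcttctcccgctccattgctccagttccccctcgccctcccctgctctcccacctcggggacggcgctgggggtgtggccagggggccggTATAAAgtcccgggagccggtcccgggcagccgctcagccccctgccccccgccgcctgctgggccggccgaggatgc
Rflnb: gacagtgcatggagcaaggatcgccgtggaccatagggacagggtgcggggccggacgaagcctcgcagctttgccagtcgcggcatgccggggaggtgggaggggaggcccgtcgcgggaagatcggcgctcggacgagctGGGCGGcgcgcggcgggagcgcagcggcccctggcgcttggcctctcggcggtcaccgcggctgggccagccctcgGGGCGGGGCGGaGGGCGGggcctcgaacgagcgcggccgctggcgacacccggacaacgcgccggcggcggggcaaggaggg
Niban1: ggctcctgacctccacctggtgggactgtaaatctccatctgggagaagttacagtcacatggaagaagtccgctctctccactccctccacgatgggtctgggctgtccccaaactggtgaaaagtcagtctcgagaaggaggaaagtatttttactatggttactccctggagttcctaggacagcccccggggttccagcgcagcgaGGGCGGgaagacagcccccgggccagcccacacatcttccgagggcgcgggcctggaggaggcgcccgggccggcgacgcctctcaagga

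The Igfbp4 window held 1 TATA box, whose first base lies 28 bases before the start, and no GC box. The Rflnb window held 4 GC boxes, a pair of which overlap by a base, and no TATA box. The Niban1 window held 1 GC box. Of the 32851 promoters of this length, 13.6% held a TATA box and 35.7% a GC box on either strand. The windows were GC rich, with 71.3% G or C for Igfbp4, 77.0% for Rflnb and 61.3% for Niban1, beside a median of 52.7% over all promoters. CpG pairs numbered 27, 44 and 16 in the same order, beside a median of 7.

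Motifs of factor families that act in T cells were searched in the same windows on both strands. The CACCC box of the KLF type (CCACCC) is held by 31.5% of all promoters, the forkhead motif of the FOXO type (TGTTTAC) by 3.65%, the RUNX motif (TGTGGT) by 16.8%, the ETS motif (CCGGAA) by 14.9%, the TCF/LEF motif (CTTTGA) by 16% and the E-box (CAGCTG) by 16.3%. None of these letters occurred in any of the 3 windows, which says nothing of whether the factors bind elsewhere.

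Igfbp4 was higher in each subset than in the one before. On its probe set of highest mean, 1437405_a_at, the intensity was 969.6, 1103 and 964.8 on the SP1 arrays and 1834, 1806 and 2238 on the SP2 arrays, in order of replicate number. It was 2478, 3631 and 3580 in SP3 and 4036, 4626 and 4361 in SP4. No SP2 array was as low as an SP1 array, and likewise no SP3 array reached down to SP2 and no SP4 array to SP3, so the 4 subsets did not overlap. The means were 1013 ± 78.6, 1959 ± 241, 3230.0 ± 651 and 4341 ± 296 (SD, n = 3 arrays each), and the ratio of the SP4 mean to the SP1 mean was 4.29.

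On the log2 scale, with 16 added to each intensity, the steps of this probe set were 0.94 from SP1 to SP2, 0.70 from SP2 to SP3 and 0.44 from SP3 to SP4, each with an SE of 0.17. The first step was therefore the largest of the 3 means. Neighbouring steps share a subset, so the difference between them has a larger SE than either step, and it was not tested. The whole rise came to 2.08.

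The other Igfbp4 probe sets ran in parallel. Probe set 1423756_s_at had the largest rise of the 6, from 545.1, 634.5 and 422.5 in SP1 to 3182, 3491 and 2927 in SP4, a log2 difference of 2.56 (SE 0.17). The smallest was that of 1421991_a_at, at 1.83 with an SE of 0.48, and its replicate 3 arrays were low throughout. There the intensities were 45.4, 89.3, 131 and 183 from SP1 to SP4, below both other arrays of the same subset each time.

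The order of the subsets was the same within each replicate number for all 6 Igfbp4 probe sets. Each step was above 0 in 18 of 18 combinations of probe set and replicate number. The step from SP1 to SP2 was the largest of the 3 in 12 of these 18 combinations, and each of the later steps was the largest in 3. These 12 were every probe set in replicates 1 and 3, while in replicate 2 a later step was the largest on every probe set. The 6 probe sets read the same arrays, so the 18 combinations are not independent. On 5 of the 6 probe sets, no neighbouring subsets overlapped, and 1421991_a_at was the exception at every step. Over all 45037 probe sets, 0.0511% lay above the subset before on every array at all 3 steps, and since the genes were picked for their rise nothing is read from this.

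**Figure D1:**
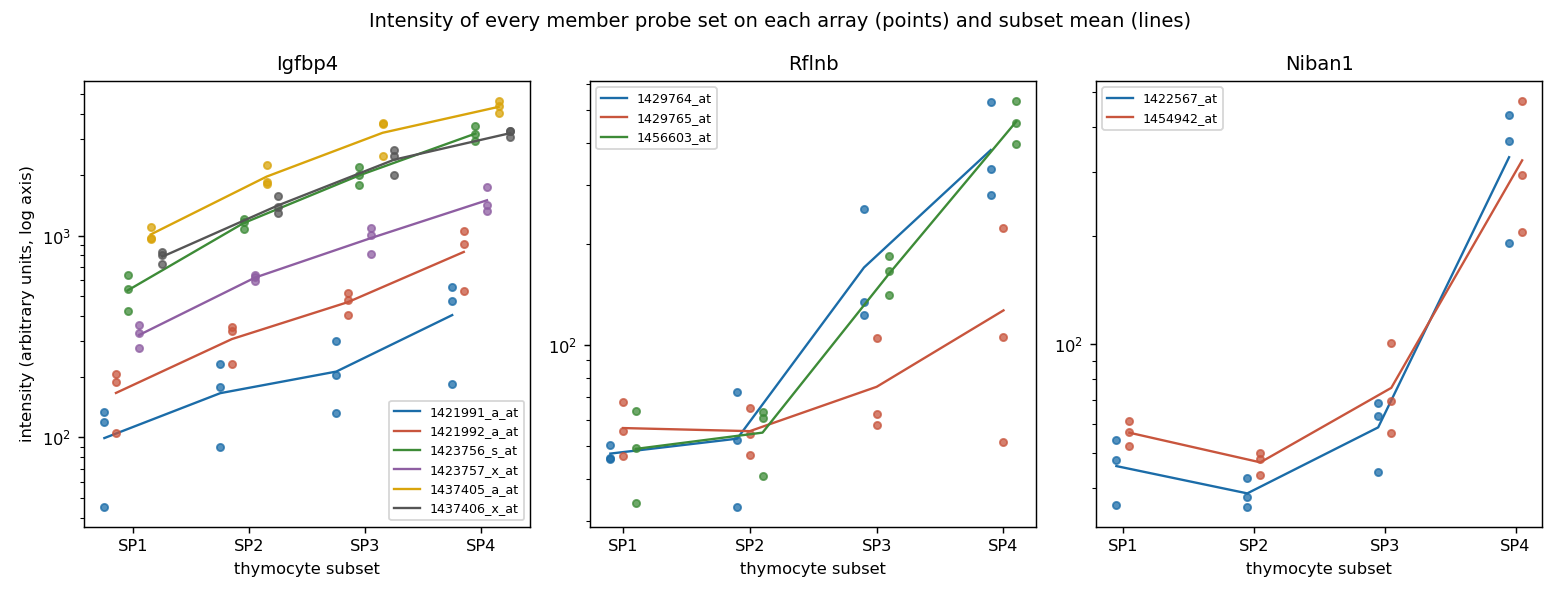
Intensity (arbitrary units, log axis, a separate scale per gene) of the 11 probe sets of Igfbp4, Rflnb and Niban1 in subsets SP1 to SP4, with 1 point per array and lines through the subset means. Igfbp4 climbs from SP1 onward, Rflnb lies flat to SP2 and then climbs except on the dim probe set 1429765_at, and Niban1 stays at or under 101 on every array before SP4.

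Rflnb stayed low through SP2 and rose in SP3 and again in SP4. On its probe set of highest mean, 1456603_at, the intensity was 49.4, 63.8 and 34.0 in SP1 and 63.4, 40.7 and 60.5 in SP2, which overlapped. The SP3 arrays gave 140.5, 166.3 and 183.5 and the SP4 arrays 531.9, 459.5 and 396.4, each subset clear of the one before, as in 0.384% of all probe sets for these 2 steps. The SP4 mean of 463 ± 67.8 was 9.43 times the SP1 mean of 49.1 ± 14.9 (SD, n = 3 arrays each).

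The log2 steps of 1456603_at were 0.13 to SP2, 1.35 to SP3 and 1.41 to SP4, each with an SE of 0.21. Both later steps were thus of about the same size, and the first lay within its error of 0. The whole rise was 2.90.

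The second Rflnb probe set, 1429764_at, followed the same course, with 50.5, 45.9 and 46.1 in SP1, 52.1, 33.0 and 72.7 in SP2, 134.3, 122.7 and 253.5 in SP3 and 279.5, 335.3 and 527.7 in SP4. Its log2 steps were 0.07, 1.42 and 1.11, each with an SE of 0.30. The third probe set, 1429765_at, was at odds with both. It read 67.5, 55.5 and 46.7 in SP1 and 223.2, 105.8 and 51.4 in SP4, so that the groups overlapped and the difference of 0.80 (SE 0.37) came from replicates 1 and 2. In replicate 3 the probe set stayed between 46.7 and 57.6 in all 4 subsets.

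Niban1 rose last, mostly between SP3 and SP4. On 1454942_at the intensity was 61.3, 56.9 and 52.2 in SP1, 49.8, 43.3 and 47.9 in SP2 and 56.8, 100.5 and 69.7 in SP3, before 204.4, 472.5 and 294.8 in SP4. Every SP4 array lay above every array of the other subsets, as in 1.58% of all probe sets, while SP3 overlapped SP1. On both Niban1 probe sets every SP3 array also lay above every SP2 array. SP3 was clear of SP2 and SP4 clear of SP3 in 0.384% of all probe sets. The SP2 arrays lay just below those of SP1, with means of 47.0 ± 3.37 and 56.8 ± 4.53 (SD, n = 3 arrays each).

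The log2 steps of 1454942_at were -0.21 to SP2, 0.51 to SP3 and 1.84 to SP4, each with an SE of 0.26. The other Niban1 probe set, 1422567_at, gave -0.17, 0.44 and 2.15, also with an SE of 0.26. On it, intensity went from 47.8, 54.1 and 35.8 in SP1 to 190.8, 366.4 and 434.2 in SP4, a mean ratio of 7.20, against 5.70 on 1454942_at. The last step was the largest of the 3 in 6 of 6 combinations of probe set and replicate number. The SP4 arrays also spread most here, with an SD of 136 around a mean of 324 on 1454942_at.

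**Figure D2:**
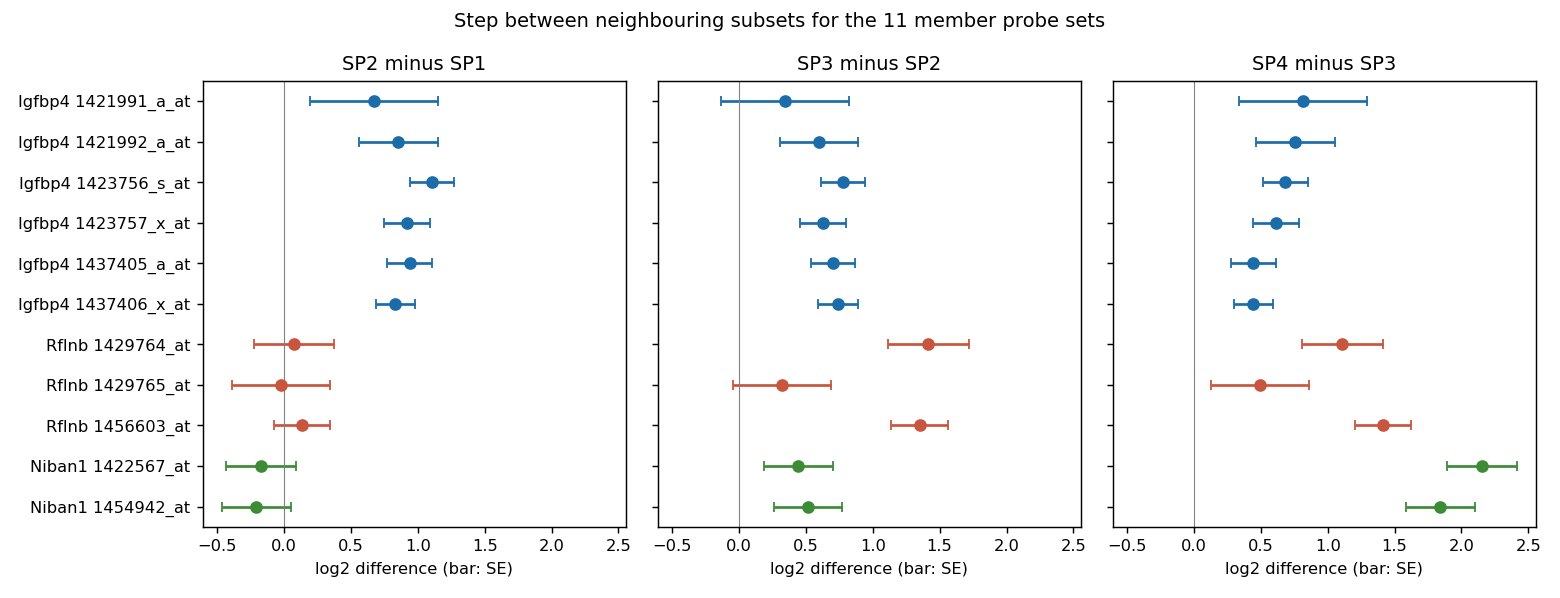
Log2 difference between neighbouring subsets (points) with its SE (bars) for each of the 11 probe sets, from the fit to all 12 arrays. The largest values of Igfbp4 lie in the step from SP1 to SP2 for 5 of its 6 probe sets, and those of Niban1 in the step from SP3 to SP4, at 1.84 and 2.15.

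The timing of the 3 rises can be set side by side as the share of the log2 difference between SP1 and SP4 that a subset had reached. Each share is read on the gene's probe set of highest mean. For Igfbp4 this share was 45.0% at SP2 and 78.7% at SP3. For Rflnb it was 4.61% at SP2 and 51.2% at SP3. For Niban1 it was -9.69% at SP2 and 14.3% at SP3, a negative share meaning a level below that of SP1.

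On these probe sets the shares kept this order at SP3 within each of the 3 replicate numbers. Igfbp4 had reached between 65.7% and 86.9% there, Rflnb between 41.0% and 65.6% and Niban1 between -5.71% and 24.7%. At SP2 the ranges were 34.3% to 55.6% for Igfbp4, -19.1% to 20.2% for Rflnb and -15.2% to -4.34% for Niban1, so Rflnb and Niban1 overlapped. Other probe sets did not always keep the order at SP3. In replicate 2, Igfbp4 1421991_a_at had reached 33.8%, below 46.5% on Rflnb 1429764_at and 46.3% on 1456603_at. On Rflnb 1429765_at the shares were 35.4%, 17.5% and 220% in replicates 1 to 3, the last over a log2 rise of 0.10. With the mean of all probe sets of a gene, the shares at SP3 were 70.8% for Igfbp4, 52.0% for Rflnb and 12.6% for Niban1. On linear intensities the shares of the probe sets of highest mean at SP3 were smaller, at 66.6% for Igfbp4, 27.7% for Rflnb and 7.06% for Niban1. The share of Niban1 at SP3 was 5.54% without SP3 replicate 2 and 21.4% without SP3 replicate 1. That of Rflnb at SP2 ranged from -1.61% without SP1 replicate 3 to 9.89% without SP2 replicate 2, and was also moved by over 1.5 times without SP1 replicate 2, SP2 replicate 1 or SP2 replicate 3. No test was made of these differences in timing, since the genes were picked for their rise.

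**Figure D3:**
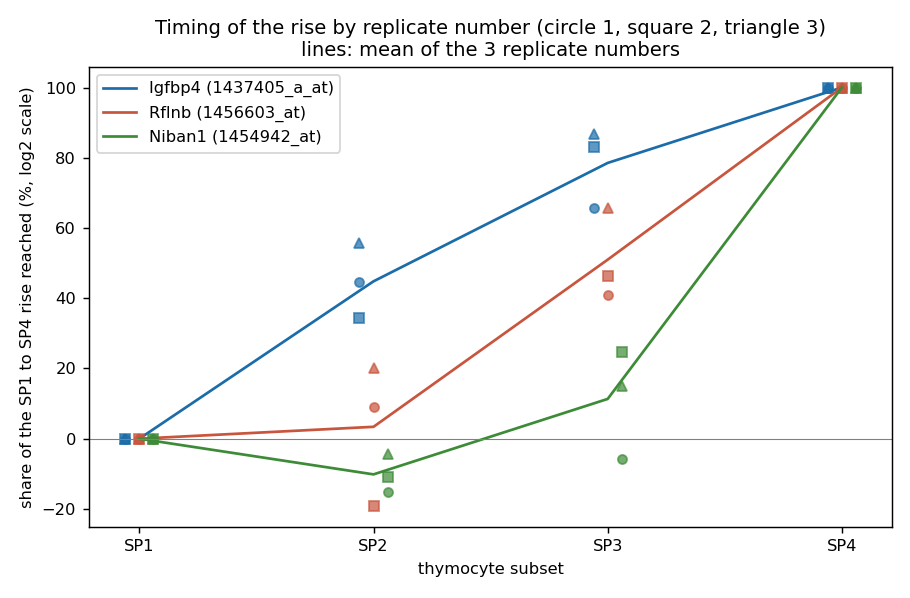
Share of the rise from SP1 to SP4 (%, on the log2 scale, set to 0 at SP1 and 100 at SP4) reached in each subset, with 1 symbol per replicate number and lines through the mean of the 3. Each gene is read on its probe set of highest mean. At SP3 Igfbp4 lies between 65.7% and 86.9%, Rflnb between 41.0% and 65.6% and Niban1 between -5.71% and 24.7%.

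In the limma fit to all probe sets, 0.862% of the 45037 were called higher in SP4 than in SP1 (Benjamini-Hochberg adjusted p under 0.05) and 0.22% lower. Of the 11 probe sets of the 3 genes, 9 were among those called higher, a count that the choice of the genes fixed and from which nothing is read. With the replicate number as a block, 3.39% of all probe sets were called higher and 1.77% lower, and the count for the 3 genes was 10 of 11. The probe set that never passed was Rflnb 1429765_at, and Igfbp4 1421991_a_at passed with the block alone. Between SP3 and SP4, 0.149% of all probe sets were called higher, or 0.897% with the block. Here 3 of the 11 were called, both of Niban1 and 1456603_at of Rflnb, and 7 with the block.

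No rise was called in other members of the same families. The 9 measured relatives were Igfbp1, Igfbp2, Igfbp3, Igfbp5, Igfbp6 and Igfbp7, which also bind IGFs or related ligands, Rflna, the other refilin, and Niban2 and Niban3. None of their 14 probe sets was called by limma between SP1 and SP4 with or without the block, and 0 had an unadjusted p under 0.05. The brightest were Niban3, which ranged from 88.6 to 157 over the 12 arrays (log2 difference -0.15, SE 0.20), and Igfbp7, from 91.4 to 118 (0.08, SE 0.13). At the other end, the mean intensities of Rflna, Igfbp1, Igfbp2 and Igfbp3 were 5.01, 6.16, 8.49 and 9.24. At this level a change could hardly be seen. The other Rflna probe set was brighter, with a mean of 52.3 (log2 difference -0.06, SE 0.19). Igfbp6 and Niban2 were also dim, with means of 17.9 and 31.4.

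The IGF axis around Igfbp4 was read from a list of 21 IGF ligands, receptors, signalling proteins, binding proteins and proteases with their inhibitors, all of them measured. This list includes the Igfbp relatives given above. None of the 21 was called by limma between SP1 and SP4, 1 had an unadjusted p under 0.05, and 1 was called higher with the block, beside 3.39% of all probe sets. Many of the 21 were dim, among them the ligand genes Igf1 and Igf2 with SP1 means of 23.85 and 32.05. Array medians lay between 30.5 and 32.8, and at such levels a change could hardly be seen. The median log2 difference was -0.05, beside -0.01 over all probe sets. The gene called with the block was Igf2r, a receptor that clears IGF2 and carries lysosomal enzymes. Igf2r read 377, 449 and 584 in SP1 and 817, 1003 and 788 in SP4, without overlap as in 6.29% of all probe sets, a log2 difference of 0.88 (SE 0.22, limma adjusted p = 0.11, or 0.00291 with the block). Igf1r, the receptor that carries the growth signal, read 134, 125 and 223 in SP1 and 86.9, 122.9 and 164 in SP4 (-0.33, SE 0.28, adjusted p = 0.972). Of the 3 Wnt receptor genes whose products IGFBP4 can bind, none was called with or without the block, and 0 had an unadjusted p under 0.05. Lrp5 (log2 difference -0.25, SE 0.17) and Fzd8 (-0.11, SE 0.10) were dim, with SP1 means of 19.5 and 15.9.

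Around Rflnb, 17 of 18 listed filamins and filamin partners were measured. In SP4 against SP1, 1 was called higher, beside 0.862% of all probe sets, and 0 lower, and the median log2 difference was 0.10. The called gene was Itgb7, the integrin β7 chain of gut-homing T cells, whose tail binds filamin. Itgb7 read 358, 403 and 320 in SP1 and 1541, 1278 and 938 in SP4, without overlap as in 6.29% of all probe sets. Its log2 difference was 1.73 (SE 0.20, limma adjusted p = 0.00176). With the block, where 3.39% of all probe sets were called higher, Actn1 was called too (0.65, adjusted p = 0.0485, against 0.904 without the block). Actn1 encodes an actin crosslinker. Flna, the filamin that refilin B binds, read 613, 818 and 726 in SP1 and 1069, 1126 and 785 in SP4, which overlapped.

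Around Niban1, 21 of 23 genes of its family and of the integrated stress response, which slows translation under stress, were measured. None was called by limma between SP1 and SP4, 3 had an unadjusted p under 0.05, and the median log2 difference was -0.12. With the block 1 was called higher, beside 3.39% of all probe sets. That gene was Eif2ak2, which encodes the kinase PKR (0.53, adjusted p = 0.0203, against 1 without the block). Atf6, which encodes a sensor of endoplasmic reticulum stress, went from 133 ± 14.1 to 94.9 ± 20.6 (SD, n = 3 arrays each), a log2 difference of -0.44 (SE 0.18, adjusted p = 0.534).

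The list of naive T cell and egress genes can be set beside the stage at which the 3 genes rose, although its members did not share a timing. Of 9 measured members, 3 were called higher in SP4 than in SP1 and 0 lower, or 5 and 1 with the block, and the median log2 difference was 0.59. Over all probe sets the shares were 0.862% and 0.22%, or 3.39% and 1.77% with the block. Satb1 was the gene called lower with the block (log2 difference -0.585, SE 0.16, limma adjusted p = 0.0373 with the block). Ccr7 and Il7r were highest in SP2, with means of 1666, 2684, 1846 and 2444 from SP1 to SP4 for Ccr7. S1pr1, the receptor that guides T cells out of the thymus, read 185, 178 and 96.4 in SP1, 169.5, 137 and 268 in SP2, 583, 487 and 744 in SP3 and 1120.0, 845 and 933 in SP4. Its levels thus went up at SP3 and SP4, as those of Rflnb did, and the log2 difference between SP4 and SP1 was 2.58 (SE 0.28, limma adjusted p = 0.00138). Klf2, which encodes a factor that drives S1pr1, rose by 1.93 (SE 0.29, adjusted p = 0.00854), with means of 341, 638, 1029 and 1354 from SP1 to SP4. Dapl1 rose by 1.70 (SE 0.31, adjusted p = 0.0207), with means of 48.4, 39.9, 93.4 and 198. The adjusted p of Dapl1 rose to as much as 0.0965 when single arrays were left out, and passed 0.05 without SP1 replicate 1, SP1 replicate 3, SP4 replicate 2 or SP4 replicate 3.

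**Figure D4:**
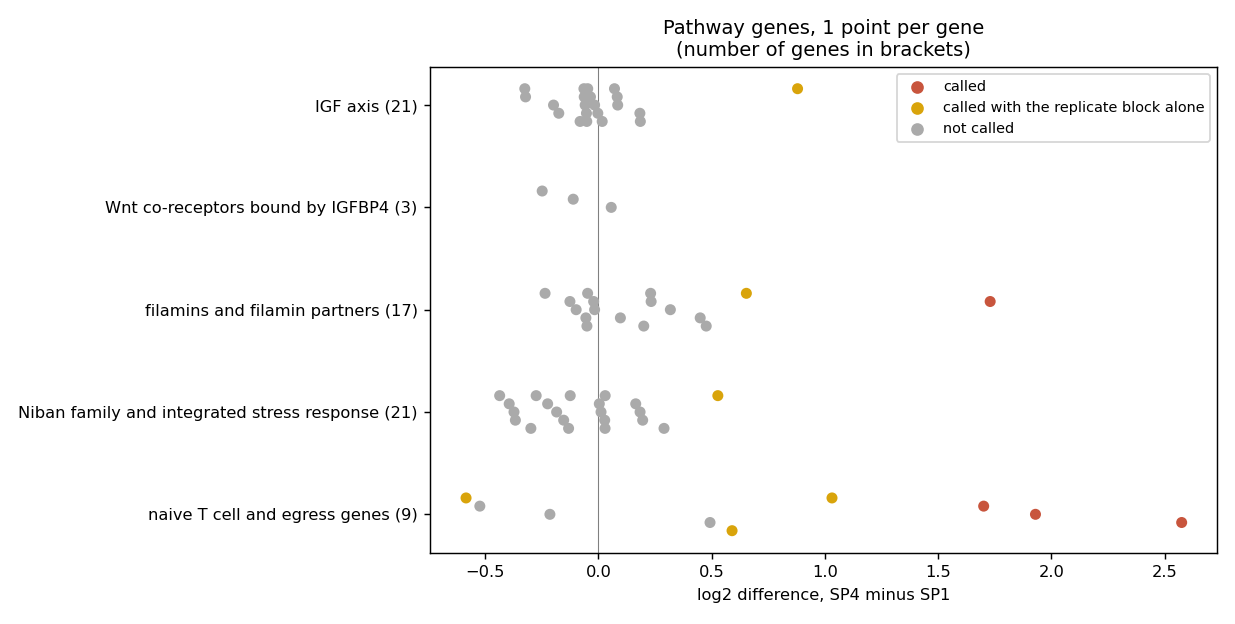
Log2 difference between SP4 and SP1 for each measured gene of 5 lists, with 1 point per gene, colored by whether the gene was called (limma adjusted p under 0.05), called with the replicate block alone or not called. The called points are Itgb7 at 1.73 and Dapl1, Klf2 and S1pr1 at 1.70, 1.93 and 2.58.

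The genes whose pattern was most like that of each of the 3 were found by Pearson correlation of log2 values over the 12 arrays, among 7183 genes with a mean intensity of 100 or more. The arrays share subsets and replicate numbers, so these values are a description. Nearest to Igfbp4 were Rasa3, a GTPase-activating protein for Ras and Rap (r = 0.97), B4galt5 (0.97), Il17ra, a receptor chain for interleukin 17 (0.97), St8sia6, a sialyltransferase (0.96), and Ms4a6b (0.96). After the mean of each replicate number was taken out, none of these 5 stood among the 5 nearest, although their own r stayed between 0.97 and 0.98. Their means climbed at every step, for Rasa3 256, 456, 650 and 961 from SP1 to SP4.

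Nearest to Rflnb were Smpdl3a (r = 0.98), Sidt1 (0.98), Tmem71 (0.98), Gm2a, a lysosomal lipid-binding protein (0.98), and Btbd11 (0.97). Smpdl3a had means of 171, 186, 352 and 872. Nearest to Niban1 were Hopx, a homeodomain-only protein (r = 0.97), Ahnak, a large scaffold protein (0.96), Gm2a (0.94), Il18r1, a receptor chain for interleukin 18 (0.94), and Smpdl3a (0.93). Hopx had means of 102, 111, 114 and 304, and Ahnak 60.0, 48.0, 97.7 and 322, so both lay lower before SP4. A gene that is dim elsewhere, as Ahnak is, reaches the minimum mean of 100 only through the subset where it is high, so the filter itself favors such a pattern among dim genes. Gm2a and Smpdl3a stood in the lists of both Rflnb and Niban1, and Ahnak and Il18r1 are markers of activated or memory and of innate-like T cells.

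**Figure D5:**
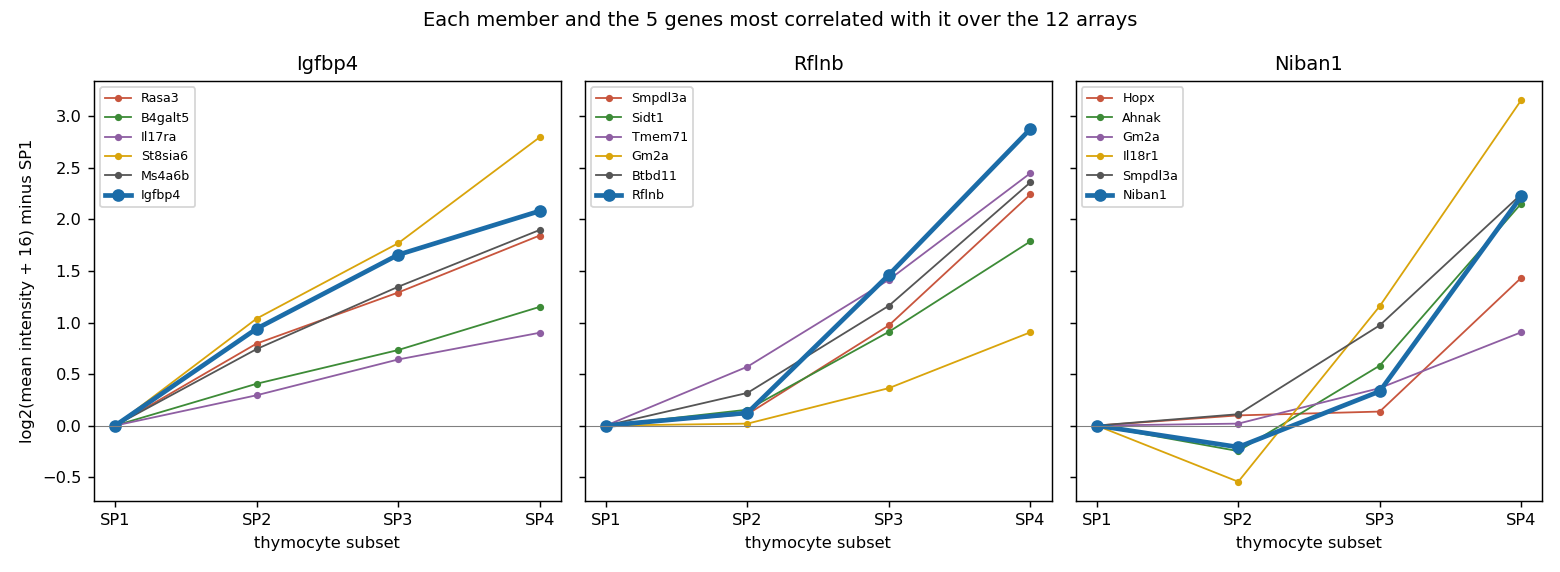
Log2 of the subset mean intensity plus 16, minus the SP1 value, for each of the 3 genes (thick line) and the 5 genes most correlated with it over the 12 arrays (thin lines). The thin lines of Igfbp4 climb from SP2, as shown by Rasa3 with means of 256, 456, 650 and 961, while Hopx and Ahnak in the panel of Niban1 turn upward late.

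Among one another, the probe sets of highest mean correlated over the 12 arrays with r = 0.89 for Igfbp4 and Rflnb, 0.89 for Rflnb and Niban1 and 0.72 for Igfbp4 and Niban1. The pair of genes that rose earliest and latest thus had the lowest value.

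Markers of other cells moved with the late rise. The summed intensity of the 11 NKT and innate-like T cell markers lay between 343 and 2013 in SP1, 349.5 and 943 in SP2, 1380.0 and 1589 in SP3 and 2493 and 3121 in SP4, although NK1.1+ cells were sorted out. In SP4 against SP1, 4 of the 11 were called higher by limma, or 8 with the block, and the median log2 difference was 1.64. Of these 4, Il4 lost its call in 4 of the 12 fits that left out 1 array (limma adjusted p up to 0.0944), and the others kept theirs. Of all probe sets, 0.862% were called higher, or 3.39% with the block. Zbtb16, the defining factor of NKT cells, read 36.9, 25.8 and 12.9 in SP1 and 174, 317 and 301 in SP4. The sum of 11 markers of activated or memory T cells was 3831 to 4292 in SP1, 3284 to 5112 in SP2, 3723 to 5859 in SP3 and 5905 to 9429 in SP4, with 4 called higher, or 8 with the block, and a median of 1.61. Of these 4, Maf lost its call in 8 of the 12 fits that left out 1 array (limma adjusted p up to 0.156), and the others kept theirs. Cd44 went from 241 ± 27.8 to 424 ± 36.0 (SD, n = 3 arrays each, limma adjusted p = 0.102, or 0.00812 with the block). Both sums were highest in SP4, as were the main probe sets of Igfbp4, Rflnb and Niban1, and their part in these rises was not tested.

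Markers of double positive thymocytes, which precede the CD4 SP stage, parted the arrays in another way. The sum of 8 such markers was 7065, 7137 and 772 in SP1, 2159, 562.5 and 815 in SP2, 13330.0, 7314 and 2103 in SP3 and 3211, 3110.0 and 931 in SP4, so replicates 1 and 2 of SP1 and SP3 stood apart although CD8+ cells were sorted out. None of the 8 was called by limma between SP1 and SP4, 0 had an unadjusted p under 0.05, and the median log2 difference was -0.58. Between SP2 and SP3, where Rflnb rose, 8 of 8 were above 0 with a median of 2.36, and the sum went up within each replicate number. In this step 6 of the 8 had an unadjusted limma p under 0.05 and 2 were called higher with the block. Over all 45037 probe sets, 656 were higher at an unadjusted p under 0.05, and 0.0888% were called higher with the block. Replicate 3 had the lowest of these sums in SP1, SP3 and SP4 but not in SP2. On the probe sets of highest mean, its ratio of SP4 to SP1 was 4.52 for Igfbp4, 11.7 for Rflnb and 5.65 for Niban1. In replicates 1 and 2 the ratio on these probe sets was 4.16 and 4.19 for Igfbp4, 10.8 and 7.21 for Rflnb and 3.34 and 8.30 for Niban1. In replicate 3, Rflnb 1429765_at gave 1.10 and Niban1 1422567_at gave 12.1. Without the 4 arrays of highest sum, the log2 rises were 2.15, 3.25 and 2.24, and the share of its rise that Rflnb had reached was 15.0% at SP2 and 61.5% at SP3. In that fit, which left 1 SP1 array and 1 SP3 array that were assumed to vary like the others, 0 genes of the filamin list and 0 of the naive and egress list were called, and 26 of all probe sets were called higher.

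Markers of the cells in which Igfbp4 is abundant outside the T lineage were mostly near background. Of 22 stromal and epithelial markers, 20 had a mean intensity under 50, and their sum ranged from 604 to 806 in SP1 and from 623 to 921 in SP4. None of the 22 was called between SP1 and SP4 by limma, 1 had an unadjusted p under 0.05, and Cdh5 was called higher with the block. Its mean went from 16.9 in SP1 to 45.4 in SP4. Pecam1, the brightest of the 22, went from 195 to 304 and was not called. In all, 5 of the 22 were above 0, and the median log2 difference was -0.03. None of 6 B cell markers was called either, with 0 at an unadjusted p under 0.05, nor any of 9 myeloid and dendritic cell markers, with 3 at an unadjusted p under 0.05. With the block 2 of these 9 were called higher, beside 3.39% of all probe sets. Between SP3 and SP4, where Niban1 rose, 9 of these 9 were above 0 with a median of 0.44. Siglech, a marker of plasmacytoid dendritic cells, was called higher in that step (1.54, SE 0.26, limma adjusted p = 0.0482), beside 0.149% of all probe sets. The part of these markers in the late rise was not tested. Among 6 markers of regulatory T cells, Foxp3 alone was called by limma (20.4 ± 6.50 in SP1, 89.1 ± 40.4 in SP4, SD, n = 3 arrays each, adjusted p = 0.0361), and 3 were called with the block, Ctla4 and Ikzf4 among them. Foxp3 lost its call in 7 of the 12 fits that left out 1 array, where its adjusted p reached 0.144, namely without any 1 array of SP1, SP2 replicate 1, SP3 replicate 1, SP4 replicate 1 or SP4 replicate 2. The 10 measured T cell identity genes were bright in all subsets, with means from 722 to 5771, and none was called, with 1 at an unadjusted p under 0.05.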

How the data were processed

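Affymetrix whole-genome mouse arrays measured mRNA of 4 thymocyte subsets, 3 arrays each. The deposited values are linear intensities that the authors had background-corrected and normalized. For this step RMA stands in the methods and MAS5 in the submitters' processing notes, with versions not given in the sources used for this text. Array medians lay between 30.5 and 32.8, and the number of arrays limits precision. Log2 of the deposited intensity plus 16 was fitted with limma 3.58.1 in R 4.3.3 (lmFit, eBayes with trend, 1 mean per subset, all 12 arrays), with Benjamini-Hochberg adjustment per comparison and calls at an adjusted p under 0.05. The fit without a block was tried on simulated data with independent noise on each array, so not on deviations that arrays share. The methods used SAM without pairing. Deviations of same-numbered arrays from their subset means correlated between 0.279 and 0.883. For differently numbered arrays of different subsets the range was -0.812 to 0.729, which overlaps it. A blocked fit, with a term for each replicate number, was therefore also made. The annotation names 1 gene for 34945 probe sets, several for 932 and none for 9160. Genes on lists, and the rises and shares given per gene, were read by the probe set of highest mean, one ending in _x_at only where there was no other.

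The members and lists were chosen with earlier results of these data known. Named were every probe set of the 3 genes, their measured paralogs, up to 4 called members of each pathway list by size of difference (or the 2 largest where none was called), and the 5 genes most correlated with each. Flna, Actn1, Ccr7, Il7r, Satb1 and single markers of other cells were named after their values were seen. Alternatives were the offset, the mean of all probe sets, quantile normalization, linear intensities, a filter at a mean of 50, the block, only the arrays compared, and each array left out.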

Additional observations from a re-analysis of the deposited data

How the results depend on the processing

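Igfbp4, Rflnb and Niban1 kept a higher level in SP4 than in SP1 under every alternative that gave this value. The log2 rise of Rflnb was 3.25 with an offset of 1, 2.22 with an offset of 64 and 2.10 as the mean of its 3 probe sets. On linear intensities the share of the rise reached was 28.5% at SP2 and 66.6% at SP3 for Igfbp4, 27.7% at SP3 for Rflnb, and -3.67% at SP2 and 7.06% at SP3 for Niban1. With single arrays left out, the rises ranged from 2.04 to 2.15 for Igfbp4, 2.72 to 3.06 for Rflnb and 1.85 to 2.42 for Niban1, the share of Rflnb at SP2 from -1.61% to 9.89% and that of Niban1 at SP3 from 5.54% to 21.4%.

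Counts over all probe sets moved more. With the replicate block, 1527 probe sets were higher and 796 lower in SP4 than in SP1, and 404 higher in SP4 than in SP3, against 388, 99 and 67 without it. With the block the calls on the lists were 1 for the IGF axis, 2 for the filamins, 1 for the Niban and stress response list, and 5 higher and 1 lower for the naive and egress genes. With only the arrays of the subsets compared, the counts were 89, 15 and 0. The count of 67 became 34 with an offset of 1 and 18 with the filter at a mean of 50. With single arrays left out, the counts ranged from 178 to 366, 33 to 92 and 3 to 98, and naive and egress genes called lower from 0 to 1. Without the 4 arrays of highest double positive marker sums, an alternative chosen after seeing the data, the counts were 26, 7 and 0, the filamin and the naive and egress lists had 0 calls, and the rises of Igfbp4 and Rflnb were 2.15 and 3.25. The share of Rflnb was then 15.0% at SP2 and 61.5% at SP3, with SP1 and SP3 left with 1 array each. Fewer arrays leave fewer degrees of freedom, and otherwise the cause was not tested. After the mean of each replicate number was taken out, 0, 2 and 2 of the 5 genes most like Igfbp4, Rflnb and Niban1 were shared with those named.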
